A study of Mus musculus with 4 samples.

Results

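Wapal-binding sites were examined around 9 genes of the Myc network in mouse embryonic stem cells (ESCs), namely Myc, Mycn, Mycl1, Max, Mxd1, Mxd4, Mxi1, Mnt and Mga, which were located by symbol among the 22350 protein-coding genes on the autosomes and the X chromosome of the mm9 annotation. The 9 genes were listed by family membership and no measured value entered that rule, but earlier results of these data were known when they were listed. Mxd3, which is also of the Mxd family, was placed among the further genes described at the end. Wapal had been tagged with Flag and a peptide that the bacterial ligase BirA biotinylates (FB Wapal), and was recovered with its crosslinked DNA on streptavidin beads (bioChIP) and sequenced. FB Wapal was expressed from an introduced cDNA in ESCs that already expressed BirA, and 2 independently derived clones were profiled. Control cells expressed BirA without tagged Wapal, so both groups carried the ligase, and sheared genomic DNA served as input. All cells were grown under standard ESC conditions without further treatment, and the promoter that drove the tagged cDNA is not given in the sources used here.

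The measurements were 2 lists of regions called with MACS, one for FB Wapal with both clones joined and one for BirA. The FB Wapal list held 8497 regions and the BirA list 266, and 174 FB Wapal regions were set aside because 1 bp or more of them overlapped the BirA list. The remaining 8323 regions are called Wapal-binding sites here. Each has a MACS score, which is 10 times the negative log10 of the region's p-value against input and ran from 50.0 to 685, so a score near 50 lies at the calling threshold. The lists give no read counts and no value per clone. The depth behind a site is therefore unknown, no spread between replicates could be computed, and no difference below carries a test.

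Myc, Mycn and Mycl1 encode basic helix-loop-helix leucine-zipper transcription factors that pair with Max and bind the E-box CACGTG, which reads the same on both strands, at the genes they activate. The Mxd proteins, Mnt and Mga compete for Max, and Mxd and Mnt pairs recruit Sin3 repressor complexes to the same hexamer. Myc and Mycn sustain growth and self-renewal in ESCs, whereas Mga also carries a T-box domain and belongs to a variant Polycomb complex. Wapal releases the cohesin ring from chromatin, and CTCF is the zinc-finger protein at whose motifs cohesin is held.

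Of the 9 genes, 7 had at least 1 Wapal-binding site within 100 kb of the transcription start site (TSS, the 5′ end of the gene record), where 60.1% of all protein-coding genes had one. Max and Mnt had none. Only Myc, Mycl1 and Mga had a site within 50 kb, against 38.8% of all genes, and of these Myc and Mycl1 had one within 10 kb, against 9.14% of all genes. Counted from the nearest start of any annotated transcript, Mxi1 joined those within 50 kb (42.5% of all genes) and Mga those within 10 kb (12.3% of all genes). Each of the first 3 counts differs from its background share by fewer than 2 genes, and no site covered the TSS of a member. The distance from TSS to the near edge of the nearest site was 1.41 kb for Myc, 7.08 kb for Mycl1, 39.2 kb for Mga, 52.2 kb for Mxi1, 67.3 kb for Mycn, 78.0 kb for Mxd1, 89.7 kb for Mxd4, 129 kb for Max and 150 kb for Mnt. Their median of 67.3 kb was close to the median of 72.5 kb over all genes, whose quartiles were 28.9 kb and 169 kb. Myc stood at one end of this order, since 1.59% of all genes had a site as close, and Mycl1 followed with 6.51%. Mnt was at the other end, where 71.8% of genes had a site as close or closer.

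**Figure D1:**
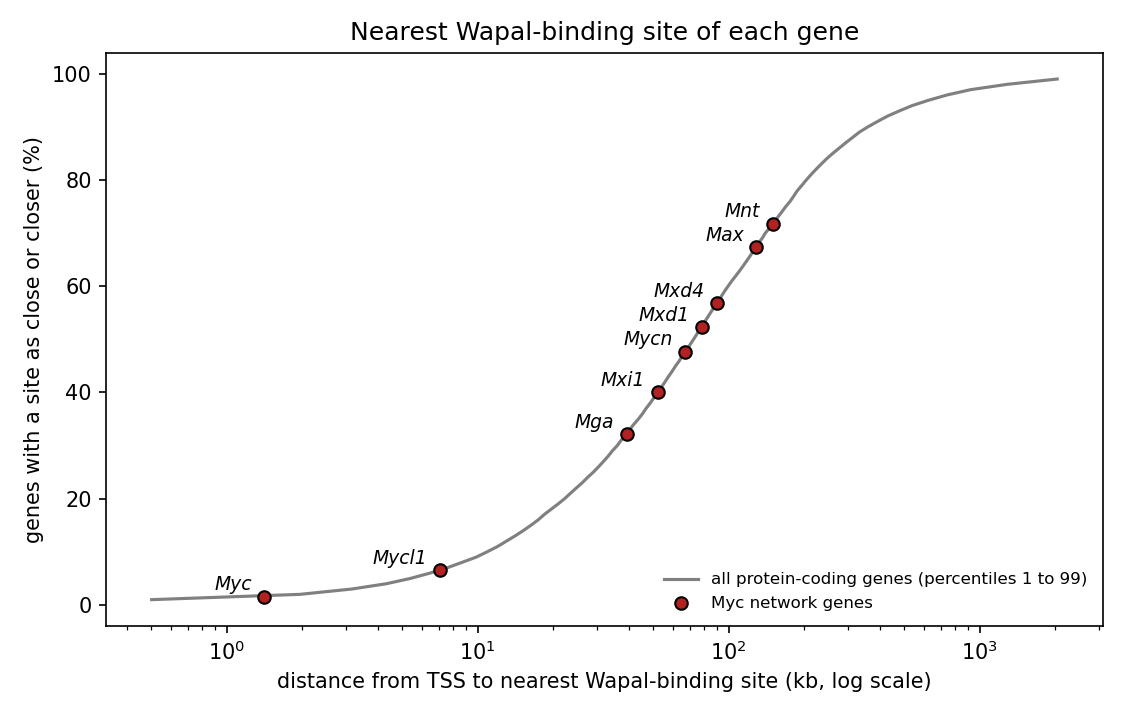
Distance from the TSS to the nearest Wapal-binding site (x axis, kb, log scale) against the percentage of protein-coding genes with a site as close or closer (y axis). The grey line gives percentiles 1 to 99 of all 22350 genes and each red point is a Myc network gene, with Myc at 1.41 kb, Mycl1 at 7.08 kb and the other 7 between 39.2 and 150 kb.

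The 12 sites within 100 kb were unevenly shared, with 4 at Mga, 2 each at Mycl1 and Mxi1, and 1 each at Myc, Mycn, Mxd1 and Mxd4. As many sites as at Mga were seen at 2.09% of all genes. With regions less than 1 kb apart merged, Mga had 3, and 8.79% of genes had as many. The median was 1 site for the 9 genes and 1 for all genes, with means of 1.33 and 0.991. Of the 12 sites, 9 lay upstream of the member's TSS. Over all genes, 52.1% of 21963 pairs of a gene and a site within 100 kb had the site upstream (95% Wilson interval 51.4 to 52.7%, counting error only). Pairs in which the site covered the TSS were left out of that share. Sites near a gene are shared with its neighbours, and the member was the closest protein-coding TSS for 7 of the 12. Here and below, the distance to the closest TSS runs from the centre of the site.

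**Figure D2:**
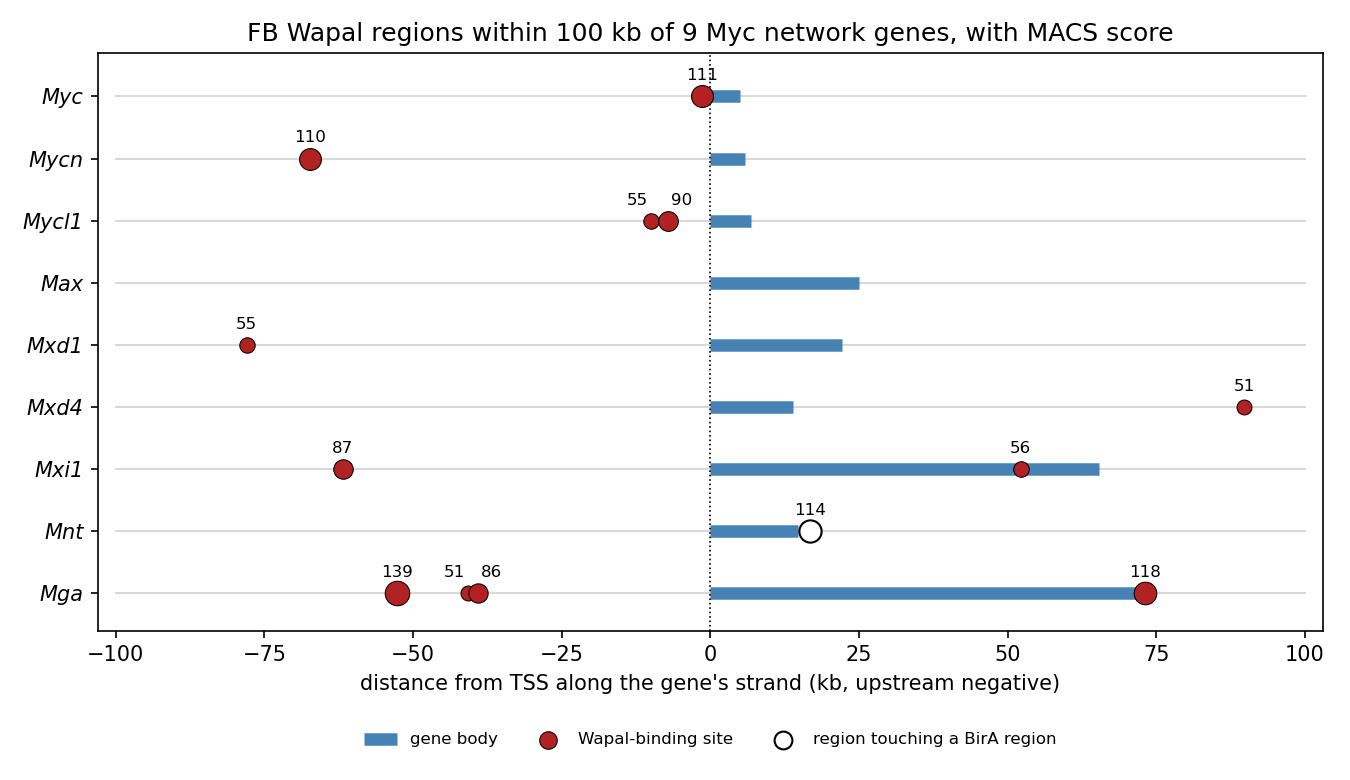
FB Wapal regions within 100 kb of the TSS of each of the 9 genes (rows), at their distance from the TSS along the gene's strand (x axis, kb). Red circles are Wapal-binding sites, the open circle is a region that touches a BirA region, circle area follows the MACS score printed above it, and blue bars are gene bodies. Mga has 4 sites, Max none, and Mnt has none other than the open circle.

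The sites resembled the rest of the list in strength and size. Their scores ran from 51.3 to 139 with a median of 86.7, against 81.4 over all sites, and 4 of the 12 scored at least 100, against 34.6% of all sites (33.6 to 35.6%). They were 477 to 1224 bp wide, with a median of 846 bp against 812 bp. The CTCF core motif, the 12 bases at the centre of the sequence that CTCF binds, was searched on both strands and each site was given its best match. A best match with no more than 1 mismatch, called a core match below, was present in 7 of the 12 sites, in 74.5% of all sites and in 10.0% of regions of equal width 5000 bp to either side. An exact match was present in 1 of the 12, in 28.3% of all sites and in 0.745% of the flanking regions. With 2 mismatches allowed the count was 10 of 12, but 49.7% of flanking regions then also matched, so strands are given below only for core matches.

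The mm9 sequence of the 7 core matches is given because these are the letters on which the descriptions of the sites below rest. Each line runs 5′ to 3′ on the strand of the motif with 15 bases on either side, and capitals mark the bases that match the core motif.
Myc, 1.41 kb upstream (chr15:61814971-61815012 strand +): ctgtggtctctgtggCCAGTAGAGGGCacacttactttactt
Mycl1, 10.0 kb upstream (chr4:122662520-122662561 strand -): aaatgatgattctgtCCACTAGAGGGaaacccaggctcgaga
Mycl1, 7.08 kb upstream (chr4:122665445-122665486 strand -): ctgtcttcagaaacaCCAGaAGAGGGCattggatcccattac
Mxd4, 89.7 kb downstream (chr5:34440165-34440206 strand +): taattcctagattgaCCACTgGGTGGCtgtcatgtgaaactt
Mxi1, 61.9 kb upstream (chr19:53322673-53322714 strand +): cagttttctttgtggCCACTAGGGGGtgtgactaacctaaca
Mxi1, 52.2 kb downstream (chr19:53437632-53437673 strand -): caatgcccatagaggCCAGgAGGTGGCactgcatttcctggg
Mga, 52.7 kb upstream (chr2:119669364-119669405 strand +): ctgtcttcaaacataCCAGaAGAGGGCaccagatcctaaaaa

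Of these 7 motifs, 3 lay on the strand of the member gene (Myc, the upstream site of Mxi1 and Mga) and 4 on the other strand (both Mycl1 sites, Mxd4 and the downstream site of Mxi1). The 12-base match of the nearer Mycl1 site and that of Mga are the same word, CCAGAAGAGGGC. That word was also the best match in a site 160 kb downstream of Mycn:
Mycn, 160 kb downstream (chr12:12788516-12788557 strand +): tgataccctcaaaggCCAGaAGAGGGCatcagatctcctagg
Outside the word, 20 of the 30 printed bases were identical by position between the Mycl1 and Mga lines, 13 between Mycl1 and Mycn and 12 between Mga and Mycn. Counted on both strands of the autosomes and the X chromosome of mm9, the word occurred 50303 times, and 619 copies (1.23%) lay in a Wapal-binding site. The word of the Myc site, CCAGTAGAGGGC, occurred 1021 times, with 45 copies (4.41%) in a site, and the same word was the best match in a site 545 kb downstream of Mycn. Over the 14 words of the core matches around the members, the share of copies in a site ran from 1.23 to 34.8% with a median of 9.14%. No annotation of repeats was used, and reads had been kept only where they aligned uniquely, so a part of repeated sequence in these values was not tested.

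Myc (chr15:61816946-61821929, + strand, ENSMUSG00000022346.8) encodes the founding member of the family. Its single site within 100 kb lay upstream at chr15:61814546-61815536, touched no annotated gene, was 991 bp wide and had a score of 111, above 72.6% of all sites. It held the exact core motif, 50 bp from its centre and on the Myc strand, and no E-box. The amplicon with which the study measured this locus by ChIP-qPCR was found in mm9 from its primers. It was 203 bp long, lay inside the site, ended 1910 bp before the TSS and contained the motif, which is in capitals:
Myc amplicon (chr15:61814834-61815036): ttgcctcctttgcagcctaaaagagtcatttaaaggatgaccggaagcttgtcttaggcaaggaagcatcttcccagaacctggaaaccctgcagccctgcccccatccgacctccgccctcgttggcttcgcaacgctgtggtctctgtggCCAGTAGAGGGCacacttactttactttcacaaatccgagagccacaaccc
On the other side of the TSS the nearest site was 1021 kb away. The site-free interval that holds Myc was therefore 1022 kb long, and 15.5% of all genes lay in a longer one. Myc was the single protein-coding gene that started in it. The interval also held Pvt1, a long noncoding RNA gene (chr15:61869542-62209651) that is co-amplified with Myc in tumours, and no site lay in Pvt1.

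Within 2 Mb of the Myc TSS, a window chosen because Myc has distal enhancers, 5 sites were found, of which 3 were upstream and 2 downstream. Their distances and scores were 1888 kb upstream with 68.1, 827 kb upstream with 208, 1.41 kb upstream with 111, 1021 kb downstream with 52.7 and 1786 kb downstream with 123. The site 827 kb upstream scored higher than 95.5% of all sites, and its closest protein-coding TSS was A1bg at 236 kb. Myc itself was the closest protein-coding TSS for 1 of the 5 sites. The site 1021 kb downstream was close to the threshold and its best motif had 3 mismatches. The 2 outermost sites held exact core motifs, which faced the gene from both sides. The upstream motif was on the Myc strand and the downstream one on the opposite strand. Other sites lay between them, and the share of such pairs over the genome was not computed. The site 1888 kb upstream held 2 motifs with no more than 1 mismatch, and the strand given is that of its best match. The gaps between consecutive sites were 1060, 825, 1022 and 764 kb, where the median gap over the genome was 155 kb and 4.87, 7.41, 5.23 and 8.29% of gaps were longer. A count as low as 5 was seen at 6.28% of all genes, whose median was 16. Gene density around Myc was also low: 9 other protein-coding TSSs lay within 2 Mb of Myc against a median of 53 over all genes. Among the 1635 genes with 5 to 15 such neighbours the median was 9 sites, and 20.7% had as few as Myc. The part of gene density in the count was not tested further.

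Mycn (chr12:12942902-12948720, − strand, ENSMUSG00000037169.8) is the family member first found amplified in neuroblastoma. Its one site within 100 kb was at chr12:13016058-13016651, 67.3 kb upstream, in no annotated gene. It was narrow, at 594 bp, which is wider than 7.65% of all sites, yet its score of 110 was above 71.9% of them. Its best core motif had 2 mismatches and it held no E-box. The nearest downstream site was 160 kb from the TSS, so the interval around Mycn was 227 kb long. Among protein-coding genes, Rpl36-ps3 started in it besides Mycn. The long noncoding RNA genes Gm17337 and 4930519A11Rik also started there.

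Within 2 Mb of the Mycn TSS 10 sites were found, with 3 upstream and 7 downstream. Upstream sites were at 67.3, 273 and 902 kb, with scores of 110, 235 and 52.3. Downstream sites were at 160, 318, 528, 545, 764, 1591 and 1763 kb, with scores of 152, 56.5, 102, 78.0, 107, 82.2 and 148. The highest score of the window, 235, was above 97.1% of all sites and belonged to the site whose closest TSS was Ddx1, an RNA helicase gene next to Mycn, at 34.2 kb. The site at 764 kb was 2501 bp wide, and 99.3% of all sites were narrower. One site lay in a gene, in an intron of Vsnl1. Mycn itself was the closest protein-coding TSS for 1 of the 10 sites. A core match was found in 8 of the 10 sites around Mycn and in 3 of the 5 around Myc, against 74.5% of all sites. A score of at least 100 was seen at 6 of 10 and 3 of 5, against 34.6% of all sites. As few as 10 sites were seen at 19.8% of all genes, and at 60.2% of the genes with 5 to 15 neighbouring TSSs, among which Mycn falls with 15.

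**Figure D3:**
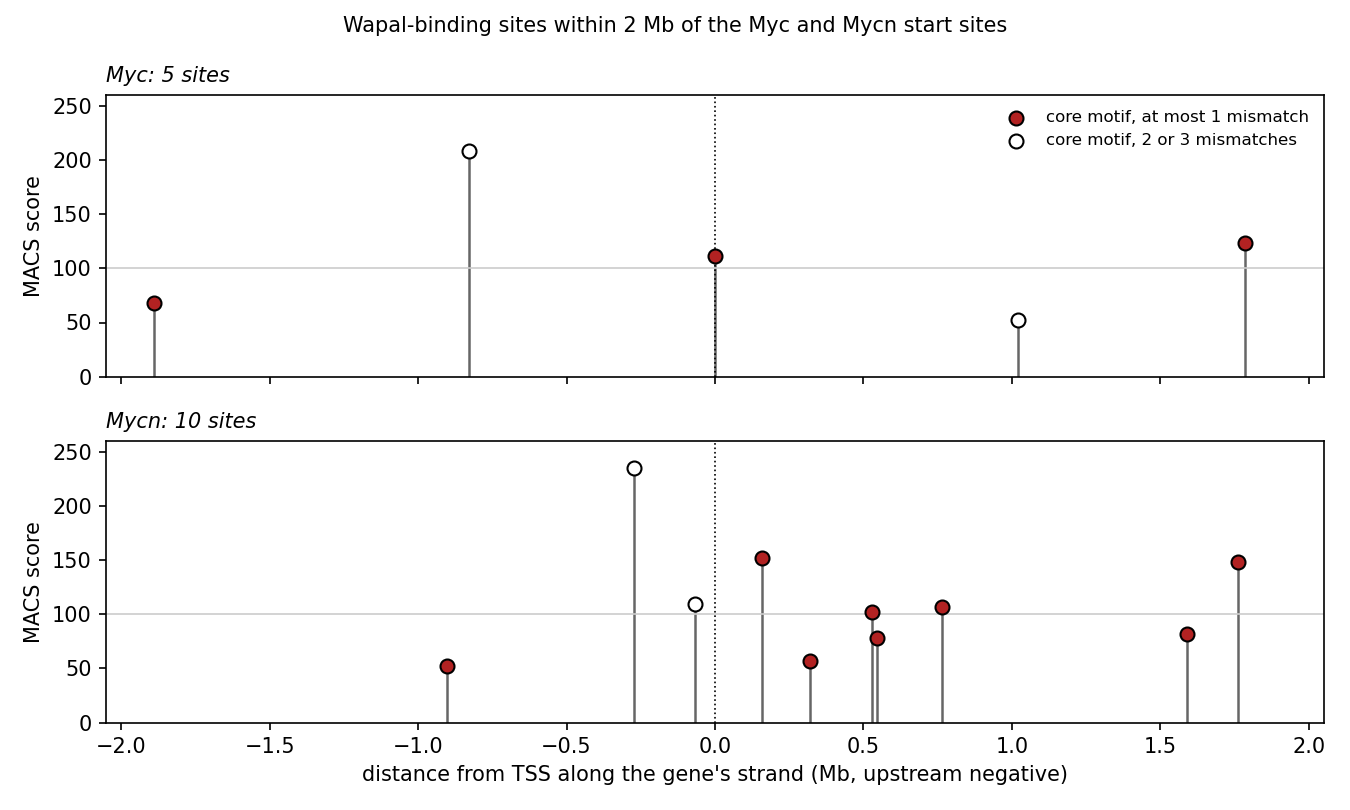
MACS score (y axis) of each Wapal-binding site within 2 Mb of the Myc (upper panel, 5 sites) and Mycn (lower panel, 10 sites) TSS, by distance along the gene's strand (x axis, Mb). Filled circles hold a core match (no more than 1 mismatch to the CTCF core motif), open circles have 2 or 3 mismatches, and the grey line marks a score of 100. The site with the highest score of each panel, 208 for Myc and 235 for Mycn, lies upstream and is open.

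The exact motifs of the outer Myc sites and of the Mycn site that shares its 12 bases with the Myc site are given for comparison with the lines above.
Myc, 1888 kb upstream (chr15:59928868-59928909 strand +): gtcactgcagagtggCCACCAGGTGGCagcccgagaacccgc
Myc, 1786 kb downstream (chr15:63603321-63603362 strand -): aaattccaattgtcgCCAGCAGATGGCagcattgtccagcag
Mycn, 545 kb downstream (chr12:12403214-12403255 strand -): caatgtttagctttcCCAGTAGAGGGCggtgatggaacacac

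Mycl1 (chr4:122672895-122679728, + strand, ENSMUSG00000028654.7), which encodes L-Myc, had 2 sites close to each other upstream of its start. The site at chr4:122665015-122665815, 7.08 kb away, had a score of 89.6, and the site at chr4:122662105-122662870, 10.0 kb away, had a score of 55.0. Both touched no gene, both held the core motif with 1 mismatch on the strand opposite to Mycl1, and each held 1 E-box. These were the 2 E-boxes found among the 12 sites, where 11.9% of all sites (11.3 to 12.7%) and 11.0% of flanking regions held one. The E-box letters are in capitals in the lines below. The lowest coordinates of E-box and core motif were 85 and 234 bp apart in the same site.
Mycl1, site 10.0 kb upstream (chr4:122662608-122662637): aggtttacgtgaCACGTGgtcaagagttcc
Mycl1, site 7.08 kb upstream (chr4:122665214-122665243): gagggtggaacaCACGTGgtgtcatcccca
The next site downstream was 396 kb from the TSS, and 12 protein-coding genes, among them Trit1, Bmp8b, Ppie, Heyl and Pabpc4, started in the 403 kb between. The site on that far side also had its motif on the strand opposite to Mycl1. Within 2 Mb there were 15 sites.

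Max (chr12:78038256-78063235, − strand, ENSMUSG00000059436.5), the shared partner of the whole network, had no site within 100 kb. The nearest, at chr12:77933392-77934306, was 129 kb downstream with a score of 53.8 and a core motif with 1 mismatch. On the upstream side the nearest was 819 kb away at chr12:78882154-78882965, with a score of 71.9 and an exact core motif. Both motifs were on the Max strand. The protein-coding starts in the interval of 948 kb were those of Max and of Fut8, a fucosyltransferase gene, and 16.8% of all genes lay in a longer interval. In the wider window Max was close to the middle of the range, with 14 sites within 2 Mb, and 41.1% of all genes had as few.

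Mxd1, Mxd4 and Mxi1 encode Max partners of the Mxd family. Of the 4 sites within 100 kb of them, 3 scored no higher than 55.6, and 12.7% of all sites scored below that value. Mxd1 (chr6:86597038-86619153, − strand, ENSMUSG00000001156.7), which rises as cells differentiate, had 1 site at chr6:86697117-86697593, 78.0 kb upstream, with a score of 54.7. It overlapped an exon of Anxa4, an annexin gene, its closest TSS was that of Gmcl1 at 14.0 kb, and its best motif had 2 mismatches. At 477 bp it was wider than 1.47% of all sites. Mxd4 (chr5:34516536-34530369, − strand, ENSMUSG00000037235.7) had 1 site at chr5:34439798-34440633, 89.7 kb downstream in an intron of the DNA polymerase gene Poln, with a score of 51.3, and 2.55% of all sites scored lower. Its closest TSS was that of Haus3 at 71.9 kb. Between the sites around Mxd1, 201 kb apart, 4 protein-coding genes started (Asprv1, Mxd1, Snrnp27 and Gmcl1), and between those around Mxd4, 420 kb apart, 7 did (Haus3, Poln, Mxd4, Zfyve28, Rnf4, Fam193a and Tnip2).

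Mxi1 (chr19:53384996-53450300, + strand, ENSMUSG00000025025.7), also known as Mxd2, was the one member with a site inside its own body. That site was at chr19:53437203-53438053, in an intron 52.2 kb downstream of the TSS, with a score of 55.6. Its closest protein-coding TSS was that of Gm10197 at 8.63 kb. The other site was at chr19:53322244-53323140, 61.9 kb upstream, with a score of 87.4. The upstream motif was on the Mxi1 strand and the intronic one on the opposite strand, each with 1 mismatch, so that they faced each other across a 114 kb interval in which Mxi1 was the single protein-coding gene to start. Over the genome, 26.5% of 4641 pairs of neighbouring sites with core matches faced each other, 27.5% faced apart and 46.0% pointed the same way. Of the other intervals with a core match at both ends, those of Mycl1, Max and Mxd4 had motifs in the same direction and that of Mnt had motifs facing apart.

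Mnt (chr11:74644422-74659227, + strand, ENSMUSG00000000282.6), a widely expressed antagonist of Myc, was the member furthest from a site. The nearest was at chr11:74794699-74795398, 150 kb downstream, with a score of 129 and a core motif with 1 mismatch. The nearest upstream was 1699 kb away with a score of 65.7. The interval of 1850 kb was the longest of the 9, 7.29% of all genes lay in a longer one, and 51 protein-coding genes started in it, many of them olfactory receptor genes such as Olfr20 and Olfr1. Within 2 Mb there were nevertheless 20 sites, above the median of 16.

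The value for Mnt depended on the BirA control. A region of the FB Wapal list at chr11:74661140-74662172, 16.7 kb downstream of the TSS and 1913 bp past the end of the gene, had a score of 114, above 73.5% of FB Wapal regions. It was set aside because it touched a BirA region at chr11:74661336-74661919, which had a score of 51.6 in its own list, and scores of separately called lists cannot be set against each other. Its core motif, with 1 mismatch, lay inside the BirA region:
Mnt, 16.7 kb downstream (chr11:74661513-74661554 strand -): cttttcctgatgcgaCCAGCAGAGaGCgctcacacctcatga
A core match was found in 41.4% of the 174 regions set aside (34.3 to 48.8%), in 25.2% of BirA regions (20.3 to 30.7%) and in 74.5% of Wapal-binding sites. If the region were kept, Mnt would have a site at 16.7 kb and 8 of the 9 genes would have one within 100 kb. BirA regions within 2 Mb of a member numbered 3 in all, and the other two were 671 kb from Mycl1 and 1844 kb from Myc.

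Mga (chr2:119722964-119795317, + strand, ENSMUSG00000033943.9) had the most sites of the 9 genes and the shortest interval. Of its 4 sites, those at chr2:119669001-119670224, chr2:119681035-119682225 and chr2:119682917-119683805 lay 52.7, 40.7 and 39.2 kb upstream, with scores of 139, 51.4 and 86.0. The fourth, at chr2:119796088-119796929, lay 73.1 kb downstream of the TSS, just past the end of the gene, with a score of 118. Its closest TSS was that of Mapkbp1 at 1.93 kb, and the closest TSS to the outermost upstream site was that of the receptor kinase gene Tyro3 at 46.1 kb. A core match was found in the outermost upstream site alone, and the best matches of the other 3 had 3, 3 and 2 mismatches. Among protein-coding genes the interval of 112 kb held the start of Mga alone, and 88.5% of all genes lay in a longer one. Within 2 Mb Mga had 21 sites, and 81.6% of genes had as few.

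**Figure D4:**
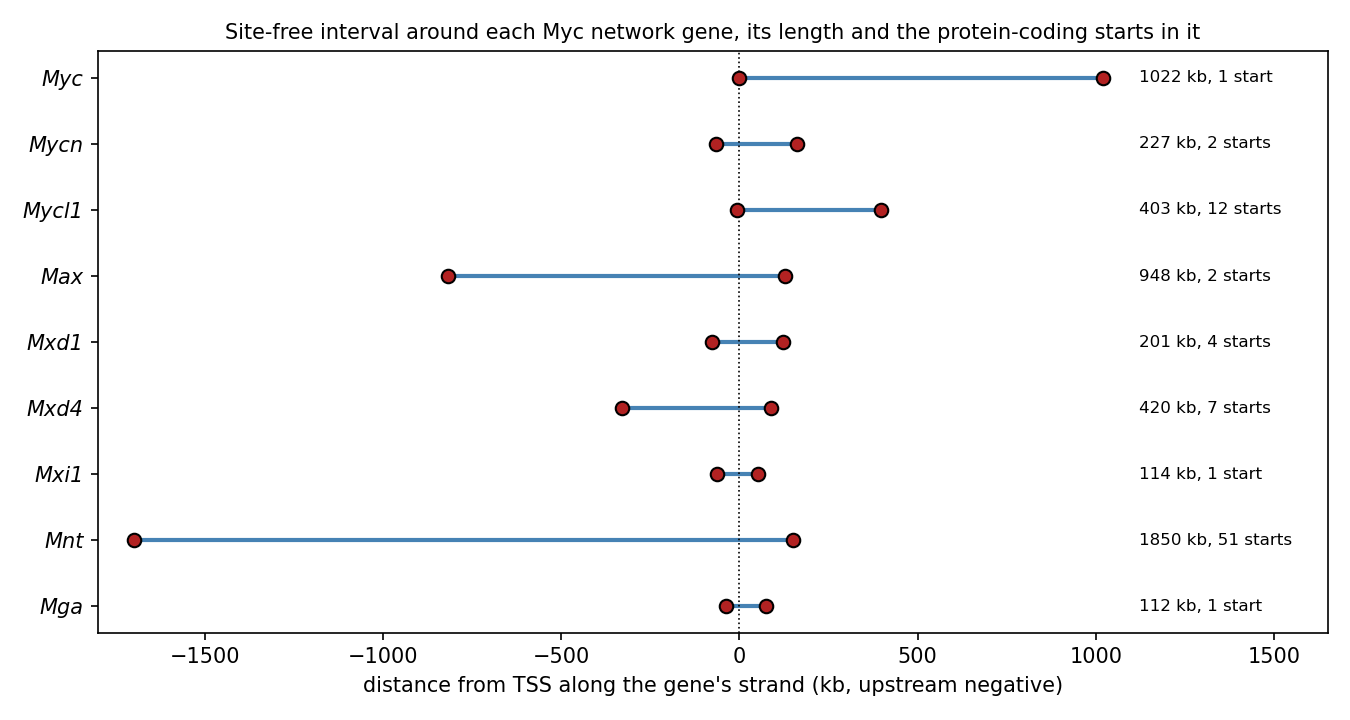
Interval between the closest Wapal-binding site on each side of the TSS for the 9 genes (rows), with distance from the TSS along the gene's strand (x axis, kb). Red circles are the sites, blue lines the site-free interval, and the text gives its length and the number of protein-coding starts in it. Intervals run from 112 kb at Mga to 1850 kb at Mnt, and those of Myc, Max and Mnt are the longest.

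The 9 intervals had a median length of 403 kb, against 369 kb over the 21890 genes that had a site on both sides. They differed from one another far more than their median differed from that of all genes. Myc, Mxi1 and Mga were each the only protein-coding gene to start in their interval. The longest interval, that of Mnt, had the most protein-coding starts with 51, whereas the 1022 kb around Myc and the 948 kb around Max held 1 and 2, and the 403 kb around Mycl1 held 12. Counts within 2 Mb ran from 5 at Myc to 21 at Mga, and no member lay outside the 5th and 95th percentiles of all genes, which were 5 and 27 sites.

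**Figure D5:**
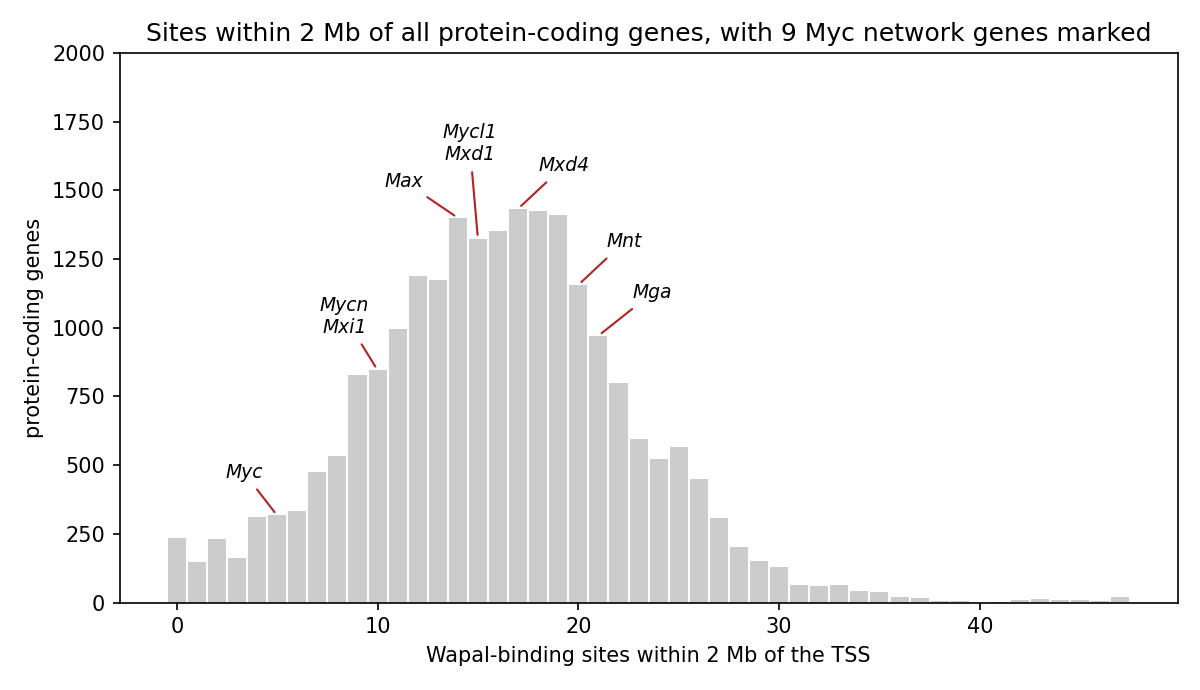
Number of protein-coding genes (y axis) by the number of Wapal-binding sites within 2 Mb of the TSS (x axis), over all 22350 genes, with the 9 Myc network genes marked at their own counts. Myc has 5 sites, Mycn and Mxi1 have 10, and the other 6 lie between 14 and 21.

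Other genes of the pathway, listed with earlier results of these data known, were described by the same measures. Of 30 such genes, 23 had a site within 100 kb, where 60.1% of all genes did, and 2 within 10 kb, where 9.14% of all genes did. Their median distance to the nearest site was 40.0 kb, against 72.5 kb over all genes. By role, a site within 100 kb was found for 3 of 4 further genes of the Mlx and Mxd arm, 6 of 10 cofactors, 5 of 6 genes of Myc turnover and kinases and 9 of 10 known targets. The median distances of these roles, in the same order, were 41.3, 61.2, 25.1 and 39.0 kb. The 3 with the closest sites were Ccnd2, the cyclin D2 gene, at 2.69 kb with a score of 95.3, Odc1, which encodes the first enzyme of polyamine synthesis, at 8.96 kb with a score of 79.0, and Usp28, whose product removes ubiquitin from Myc, at 12.3 kb with a score of 68.8. None of these 3 was as close as the site at Myc.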

How the data were processed

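ESCs of 2 FB Wapal clones, BirA cells and input were profiled by bioChIP-seq. Per the labels and the study's methods, Bowtie was used by the authors for alignment to mm9, unique alignments were kept, and MACS 1.4.2 called regions against input at p of 1e-05. They deposited 2 lists, which give each region its MACS score, and the rule that joined the clones is not given in the sources used here. Regions of the FB Wapal list were dropped where 1 bp or more overlapped the BirA list, the negative control per the labels. Distances from a member ran from its TSS (GENCODE, mm9) to the near edge of a site. The closest protein-coding TSS of a site, and its distance, were taken from the centre of the site. Motifs were searched on both strands of the mm9 sequence. For the core motif the match with the fewest mismatches was taken, and at most 1 mismatch made a core match. E-boxes were exact. Intervals are 95% Wilson intervals and cover counting error only. The steps were tested on simulated data and run in Python 3.11.15 with numpy 2.4.6, scipy 1.17.1 and pysam 0.24.0. The members, the list of 30 further genes and the settings were chosen with earlier results of these data known. Genes named besides the members hold a described site, have the closest TSS to one, start between the sites around a member or are the 3 of the further list with the closest site. Pvt1, Gm17337 and 4930519A11Rik, which are no protein-coding genes, were named after their values were seen.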

Additional observations from a re-analysis of the deposited data

How the results depend on the processing

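At a minimum score of 100, 3 members had a site within 100 kb (27.8% of all genes), with 4 sites there and 2 of them with a core match, the median nearest distance was 150 kb (234 kb over all genes), the median interval 1123 kb (1203 kb over all genes), and 3 and 6 sites were left within 2 Mb of Myc and Mycn. Within 50 kb there were 3 members with 5 sites, within 10 kb 2 members with 2 sites, and within 200 kb 19 sites. From any transcript start there were 4 members with 7 sites within 50 kb and 3 members with 3 sites within 10 kb. Myc had 2 sites within 1 Mb and 1 within 500 kb, and Mycn 4 within 500 kb. An exact motif was found in 1 site. The other 33 of 53 recomputed values stayed within 1.5 times of those reported. Of 54 distances of single members 8 moved further: Mycl1, Max, Mxd1, Mxd4 and Mxi1 at the minimum score (187, 1189, 137, 330 and 268 kb), Mnt with BirA regions kept (16.7 kb), and Mxi1 and Mga from the nearest of all annotated transcript starts (32.3 and 9.95 kb). These shifts follow from fewer or more sites and starts counted. The alternatives for the interval and the windows around any transcript start were added after the data were seen, and the interval was not recomputed with other transcript starts. Leaving out a clone was not run because the list joins both. No paired analysis was possible because no value per clone was used and no test was made.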
